A study of Mus musculus with 6 samples.

Results

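The BCL2 family decides whether a cell keeps its mitochondria intact, and this report follows 9 of its genes in mouse invariant natural killer T (iNKT) cells of 3 organs. The members were chosen by gene symbol, and each symbol matched 1 of the 27998 genes listed in the deposited matrices. They are 5 anti-death genes (Bcl2, Bcl2l1, Mcl1, Bcl2a1b and Bcl2a1d) and 4 pro-death genes (Bcl2l11, Bbc3, Bax and Bak1). The study sorted iNKT cells, a T cell lineage that sees lipid antigens held by CD1d, and profiled them by droplet-based single-cell RNA sequencing, with 2 libraries each for liver, spleen and lymph node. All mice were wild-type C57BL/6 and 5 weeks old with no treatment named, and cells positive for CD8 or B220 were depleted before the sort for TCR-β and a CD1d tetramer. The study's methods call the libraries of an organ biological repeats. The number of mice behind each and their sex are not given in the sources used here, so p-values measure the spread between these libraries.

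BCL2, BCL-XL (from Bcl2l1), MCL1 and the A1 proteins (from the Bcl2a1 genes) hold the killers of the family in check on the mitochondrial membrane. BIM (from Bcl2l11) and PUMA (from Bbc3) carry only the BH3 domain of the family and bind these protectors after cytokine loss or stress. BAX and BAK are the effectors, which open the outer membrane, release cytochrome c and start the caspases. In iNKT cells, as in other memory-like T cells, interleukin-15 and interleukin-7 are known to support survival in part through BCL2.

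After filtering, 5662 liver, 5384 spleen and 5486 lymph node cells remained, with 4758138 to 10870838 unique molecular identifiers (UMIs) per library. The median UMIs per cell were 2880 to 3592 in liver, 1554 to 1724 in spleen and 1470 to 1730.5 in lymph node. T cell genes were abundant in every library (4315 to 5589 CPM summed over the 3 of 5 listed genes that were present, where CPM is UMIs per 1000000 UMIs of the library), and genes of B cells, myeloid cells and hepatocytes were scarce (at most 17.1, 119 and 0.551 CPM per list). Haemoglobin RNA, which was removed from the totals, reached 509.8 and 793.8 CPM in liver, 0.279 CPM or less in spleen and 0 in lymph node. Of the cell barcodes, 148 occurred in more than 1 library. The 2 lymph node libraries held Y-chromosome RNA (1362 and 1579 UMIs) and no Xist, while the other libraries held Xist and no Y-chromosome RNA. Every comparison with lymph node is thus also one of libraries that differ in sex-linked RNA, and the organ cannot be told apart from it. The 12 immediate early and heat shock genes of a further list summed to 6883 and 7405 CPM in lymph node, to 881 and 888 CPM in liver and to 1196 and 1437 CPM in spleen. The 2 heat shock genes of the list had another order. Hspa1a had 32.5 and 38.6 CPM in liver and 45.8 and 47.4 CPM in lymph node, against 0.519 and 0.279 CPM in spleen, and Hspa1b had 40.8 and 41.9 CPM in liver and 38.5 and 25.3 CPM in lymph node, against 1.82 and 0 CPM in spleen. Both were called higher in liver than in spleen (edgeR adjusted p 8.75e-14 and 2.41e-07). The part of these genes' programmes in the organ differences was not tested.

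Shown are the promoters of Bcl2, which had the widest range over the organs, and of the A1 copies, both highest in lymph node. They run from 250 bases before to 50 bases after the annotated start (RefSeq, GRCm38.p6). All 9 members had an entry in this table. Capitals mark TGACGT, the core of the cyclic AMP response element, in Bcl2 and TGANTCA, the motif that AP-1 is known to bind, in the A1 copies, with both strands searched. The Bcl2 window (chr1:106714241-106714540, minus strand), the Bcl2a1b window (chr9:89199023-89199322, plus strand) and the Bcl2a1d window (chr9:88731801-88732100, minus strand) read as follows.
Bcl2: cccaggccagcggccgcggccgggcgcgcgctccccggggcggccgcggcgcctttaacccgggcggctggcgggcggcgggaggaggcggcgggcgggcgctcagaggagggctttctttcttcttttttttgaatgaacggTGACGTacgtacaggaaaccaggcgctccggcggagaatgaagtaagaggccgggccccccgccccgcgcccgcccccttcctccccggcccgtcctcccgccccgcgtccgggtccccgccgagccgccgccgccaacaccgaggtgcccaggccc
Bcl2a1b: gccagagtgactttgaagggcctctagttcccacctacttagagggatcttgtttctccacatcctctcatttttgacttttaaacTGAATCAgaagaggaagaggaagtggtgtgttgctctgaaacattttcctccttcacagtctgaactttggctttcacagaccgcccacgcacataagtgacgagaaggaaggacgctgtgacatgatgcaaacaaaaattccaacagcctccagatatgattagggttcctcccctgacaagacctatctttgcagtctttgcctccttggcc
Bcl2a1d: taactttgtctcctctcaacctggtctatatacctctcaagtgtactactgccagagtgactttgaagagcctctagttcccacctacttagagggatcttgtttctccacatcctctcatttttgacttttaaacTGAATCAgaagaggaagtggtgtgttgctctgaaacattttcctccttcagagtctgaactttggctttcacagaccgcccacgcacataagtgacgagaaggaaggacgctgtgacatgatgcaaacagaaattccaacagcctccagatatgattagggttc

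TGACGT was found in 7.51% and TGANTCA in 7.81% of the 32851 promoter windows of 300 bases in the same table. The full cyclic AMP response element TGACGTCA, found in 1.79% of the windows, was not in the Bcl2 window. The κB consensus motif, found in 4.51% of the windows, was in neither A1 window. A match here is a match of letters and no evidence of binding. The Bcl2a1b and Bcl2a1d windows had the same bases at 247 of 250 aligned positions (98.8%). Their transcripts are also alike. Of the 291 stretches of 110 bases (the length of the sequenced read) in the last 400 bases of the longest transcript, 23.0% of those of Bcl2a1b and 45.0% of those of Bcl2a1d occurred exactly in another Bcl2a1 copy. Counts of the A1 copies are therefore uncertain, and the split between them more so.

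Bcl2 was far higher in liver than in the other organs. The gene (ENSMUSG00000057329, chromosome 1, 106538178 to 106714274, minus strand, GRCm38 by GENCODE vM21) had 800.5 and 515 CPM in the liver libraries over all cells. It had 88.5 and 92.3 CPM in spleen and 66.8 and 62.5 CPM in lymph node. The libraries of the 3 organs did not overlap, and the liver libraries differed from each other by 1.55-fold, more than the replicates of either other organ. The log2 fold change was 2.78 (SE 0.16, edgeR adjusted p 1.23e-10), a 6.87-fold higher level than in spleen. Against lymph node it was 3.28 (SE 0.16, edgeR adjusted p 1.12e-12), or 9.74-fold. With libraries thinned to one total, these values were 2.77 and 3.29. Spleen was above lymph node by 0.50 (SE 0.17, edgeR adjusted p 0.042). That last call was lost when any of the 4 libraries of these organs was left out and with DESeq2 (adjusted p 0.00324 to 0.268 over its 14 alternatives). The summed values cannot tell a change of RNA per cell from a change in the mix of cells.

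The same order was seen per cell. Each cell was thinned to 1000 UMIs, since liver cells had more UMIs, and cells with fewer were left out (up to 9 per liver, 169 per spleen and 488 per lymph node library). A Bcl2 UMI was then found in 40.3% (95% Wilson interval 38.5 to 42.1) and 29.5% (27.9 to 31.2) of liver cells. In spleen the share was 6.73% (5.83 to 7.76) for the first library and 7.12% (6.17 to 8.20) for the second. In lymph node it was 4.93% (4.13 to 5.88) for the first and 4.49% (3.73 to 5.40) for the second. The intervals cover counting error only. Without thinning the shares were 72.4% and 54.6% for liver, with 10.8% and 10.9% for spleen and 7.96% and 6.71% for lymph node. The mean was 0.601 and 0.401 Bcl2 UMIs per thinned liver cell, against 0.0508 to 0.0780 in the libraries of the other organs. No cell type known to lack Bcl2 was among the sorted cells, so the share that free RNA gives could not be read from one.

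Bcl2l1 and Mcl1 were higher in liver as well, by less. Bcl2l1 (chromosome 2, 152780668 to 152831728, minus strand), which encodes BCL-XL, had 69.9 and 59.2 CPM in liver, 33.5 and 29.5 CPM in spleen and 39.1 and 43.3 CPM in lymph node. The liver level was 1.94-fold that of spleen (log2 fold change 0.96, SE 0.15, edgeR adjusted p 1.5e-05) and 1.51-fold that of lymph node (0.59, SE 0.14, adjusted p 0.00132). Mcl1 (chromosome 3, 95658788 to 95663176, plus strand), whose protein turns over within hours, had 113 and 104 CPM in liver, 66.4 and 61.3 CPM in spleen and 72.2 and 65.6 CPM in lymph node. It was higher in liver than in spleen by 0.69 (SE 0.13, edgeR adjusted p 0.000126) and than in lymph node by 0.60 (SE 0.12, adjusted p 0.000244) on the log2 scale. Neither gene passed the test between spleen and lymph node (log2 fold changes -0.36 and -0.09, edgeR adjusted p 0.124 and 0.718).

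The A1 genes, known targets of NF-κB, ran the other way. Bcl2a1b (chromosome 9, 89199209 to 89207827, plus strand) had 602 and 604 CPM in lymph node, 419.5 and 438 CPM in spleen and 357 and 415 CPM in liver. It was lower in liver than in lymph node (log2 fold change -0.70, SE 0.12, edgeR adjusted p 1.64e-05) and lower in spleen than in lymph node (-0.47, SE 0.12, adjusted p 0.00429). The spleen call was lost without the first spleen library (adjusted p 0.00084 to 0.0764 over its 14 alternatives). Bcl2a1d (chromosome 9, 88723285 to 88731914, minus strand) had 336 and 365 CPM in lymph node, 277 and 303 CPM in spleen and 239 and 289 CPM in liver. Its level was lower in liver than in lymph node (-0.47, SE 0.12, edgeR adjusted p 0.00266). That call was lost without the first liver or the second lymph node library. Unlike Bcl2a1b, Bcl2a1d did not pass the test between spleen and lymph node (-0.25, SE 0.12, edgeR adjusted p 0.164), nor did it in any of 14 alternatives. Liver and spleen did not pass the test for either copy over all cells (log2 fold changes -0.23 and -0.21, edgeR adjusted p 0.158 and 0.197).

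The 2 BH3-only genes peaked in different organs. Bcl2l11 (chromosome 2, 128126038 to 128162547, plus strand), which encodes BIM, had 90.4 and 74.5 CPM in liver, 36.9 and 37.1 CPM in spleen and 30.2 and 29.2 CPM in lymph node. The killer was thus highest in the organ where the protector Bcl2 was highest. The liver level was 2.11-fold that of spleen (log2 fold change 1.08, SE 0.14, edgeR adjusted p 1.36e-06) and 2.67-fold that of lymph node (1.42, SE 0.15, adjusted p 1.94e-09). Spleen and lymph node did not pass the test (0.34, SE 0.16, adjusted p 0.164).

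Bbc3 (chromosome 7, 16308393 to 16318205, plus strand), which encodes PUMA and is a known target of p53, had 44.2 and 45.7 CPM in lymph node. It had 20.3 and 12.5 CPM in liver and 21.5 and 13.7 CPM in spleen, where the libraries overlapped. Bbc3 was 0.354 times as high in liver as in lymph node (log2 fold change -1.50, SE 0.20, edgeR adjusted p 9.23e-07). It was 0.399 times as high in spleen as in lymph node (-1.33, SE 0.21, adjusted p 3.57e-05). Each of these values rests on few molecules, 49 to 166 Bbc3 UMIs per library. The level moved with the immediate early genes and with Y-chromosome RNA, whose part in it was not tested.

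Of the effectors, Bax was nearly level, and Bak1 was higher in liver than in lymph node. Bax (chromosome 7, 45461697 to 45466898, minus strand) had 323 and 335 CPM in liver, 383 and 370.4 CPM in spleen and 324 and 352 CPM in lymph node, and passed no test between organs (largest log2 fold change -0.27, liver against spleen, SE 0.11, edgeR adjusted p 0.0713). Bak1 (chromosome 17, 27019810 to 27029009, minus strand) had 94.1 and 83.4 CPM in liver, 73.2 and 64.9 CPM in spleen and 58.7 and 64.2 CPM in lymph node. It was higher in liver than in lymph node by 0.47 on the log2 scale (SE 0.13, edgeR adjusted p 0.00412), a call lost without the first lymph node library (0.000969 to 0.0639 over its 14 alternatives). Liver and spleen did not pass the test for Bak1 (0.28, SE 0.13, edgeR adjusted p 0.101), nor did spleen and lymph node (0.19, SE 0.14, adjusted p 0.377). Exons of Bax and Bcl2a1b overlap those of another annotated gene on the same strand, so reads there cannot be told apart.

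**Figure D1:**
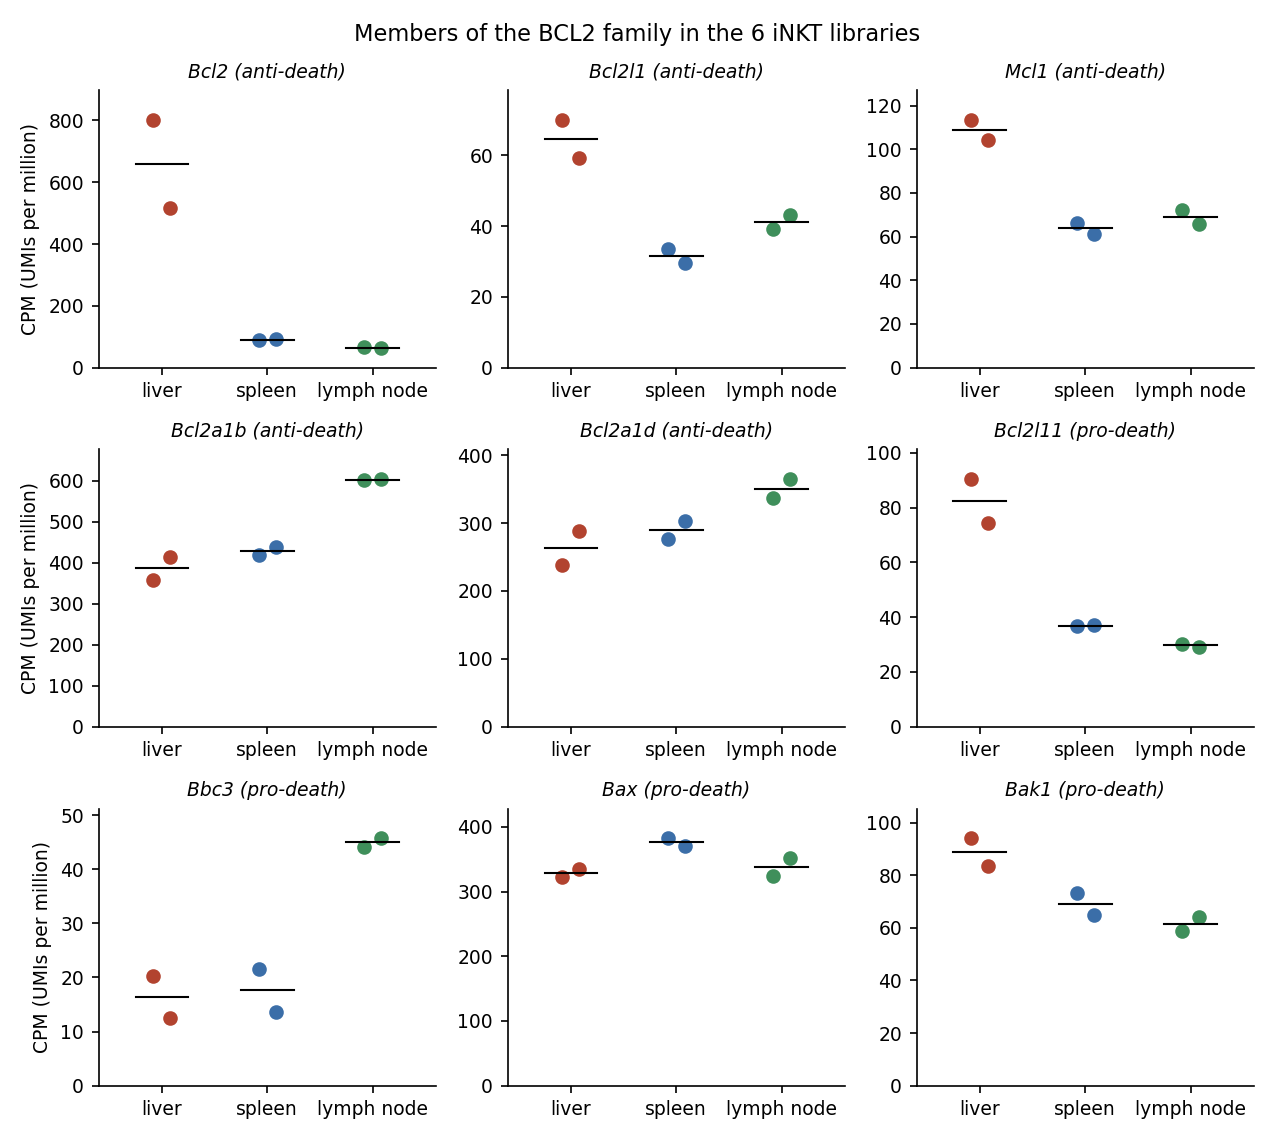
CPM of each of the 9 members over all cells, with 1 point per library (2 per organ) and a bar at the mean, on linear axes that start at 0. Bcl2 and Bcl2l11 are highest in both liver libraries, Bcl2a1b, Bcl2a1d and Bbc3 in both lymph node libraries, and Bax lies between 323 and 383 CPM throughout.

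All 9 members passed the filter on low counts over all cells. Between liver and spleen 4 were called, all higher in liver, where 25.7% of 10175 genes were called (12.7% higher and 13% lower). Between liver and lymph node 8 were called, 5 of them higher and 3 lower in liver, beside 37.6% of all genes (18% higher and 19.6% lower). Between spleen and lymph node 3 were called, 1 higher and 2 lower in spleen, beside 18.3% of all genes (7.97% and 10.3%). The members' median log2 fold changes were 0.28, 0.47 and -0.09, with medians of 0.02, 0.01 and 0.00 over all genes. The 3 comparisons share their libraries in pairs.

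The organs hold different mixes of iNKT cells, so the members were next compared within iNKT1-like cells, the class with T-bet and natural killer receptors, which was clustered without the members and the pathway genes and named from markers that include 1 pathway gene, Il2rb. The liver libraries gave 2392 and 2256 such cells, those of spleen 1971 and 2001, and those of lymph node 724 and 787. Different clusters made it up in each organ. Most liver cells came from cluster 0, led by Bcl2, Mmp9 and Socs2, and most spleen cells from cluster 1, led by Art2b and Atp6v0d2. Most lymph node cells came from a part of cluster 2, led by Klrc2 and Klrc1. That part was named against the rest of cluster 2 only, where its iNKT1-like markers had a median log2 fold of 1.29. Against all other cells, the median of these markers was -0.89 for the whole of cluster 2, 0.61 for cluster 0 and 0.26 for cluster 1. The lymph node cells of this class were thus not named by the same standard as those of liver and spleen.

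Within iNKT1-like cells Bcl2 remained highest in liver. It had 879.5 and 589 CPM there, 109 and 116 CPM in spleen and 141 and 136 CPM in lymph node. The log2 fold change was 2.61 against spleen (SE 0.14, edgeR adjusted p 3.86e-54) and 2.30 against lymph node (SE 0.15, adjusted p 9.99e-40). The very small p-values come from a fit in which genes shared nearly all of their spread (median prior degrees of freedom 580 against 29.4 over all cells). Lymph node iNKT1-like cells lay above those of spleen, opposite to all cells, and did not pass the test (-0.31, SE 0.16, adjusted p 0.262).

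Bcl2l11 had 91.1 and 77.3 CPM in liver, 45.9 and 41.2 CPM in spleen and 35.3 and 30.6 CPM in lymph node iNKT1-like cells. Its log2 fold changes were 0.86 against spleen (SE 0.16, edgeR adjusted p 3.54e-06) and 1.25 against lymph node (SE 0.21, adjusted p 2.77e-07). Without the cells that finer clustering named NF-kB-like, a step chosen after seeing the data, they were 0.47 (adjusted p 0.0253) and 0.79 (adjusted p 0.00422). With the finer clustering itself, the gap to lymph node was 0.50 and no longer called (adjusted p 0.0894). Over all 14 alternatives, the adjusted p ran from 3.31e-07 to 0.0318 against spleen and from 3.82e-08 to 0.163 against lymph node.

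Bcl2l1 and Mcl1 were higher in liver than in spleen iNKT1-like cells, by 0.87 (SE 0.17, edgeR adjusted p 9.59e-06) and 0.66 (SE 0.14, adjusted p 0.000107). Against lymph node Bcl2l1 was higher in liver by 0.57 (SE 0.21, adjusted p 0.0318), a call that 6 of 14 alternatives lost (adjusted p 0.0018 to 0.839). Mcl1 did not pass the test there (0.22, SE 0.16, adjusted p 0.363).

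The A1 genes and Bbc3 were again highest in lymph node. Bcl2a1b had 671 and 670.4 CPM in lymph node, 486 and 497 CPM in spleen and 373 and 445 CPM in liver iNKT1-like cells. Liver was lower than lymph node by a log2 fold change of -0.81 (SE 0.13, edgeR adjusted p 3.44e-08). Bcl2a1d gave -0.73 (SE 0.13, edgeR adjusted p 1.4e-06). Both copies were also called lower in liver than in spleen (-0.35 and -0.35, adjusted p 0.0278 and 0.0304), and each lost that call in 5 of 14 alternatives (adjusted p 0.000209 to 0.35 and 4.97e-05 to 0.365). Bbc3 had 54.1 and 46.5 CPM in lymph node, against 19.9 and 12.6 CPM in liver and 23.1 and 15.2 CPM in spleen. Its log2 fold changes were -1.72 for liver (SE 0.24, edgeR adjusted p 3.59e-10) and -1.40 for spleen (SE 0.26, adjusted p 5.86e-06). Bak1 passed no test in this class. Bax passed none either, although 4 of 14 alternatives called it lower in liver than in spleen (log2 fold change -0.27, SE 0.12, adjusted p 0.0421 to 0.365 over all 14).

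In iNKT1-like cells 6 members were called between liver and spleen, 4 higher and 2 lower in liver, beside 23.7% of 9370 genes (11.7% higher and 12% lower). Another 6 calls were made between liver and lymph node, 3 in each direction, beside 22% of the genes (9.53% higher and 12.5% lower in liver). Between spleen and lymph node 3 were called, all lower in spleen, beside 8.58% of the genes (3% higher and 5.58% lower). These were Bbc3 and both A1 copies, and 1 member was called when any of the 4 libraries of these organs was left out. With whole iNKT1-like clusters only, which left few lymph node cells, 2 members were called between liver and lymph node (Bcl2 and Bcl2a1b) and 0 between spleen and lymph node. The shares of all genes called in that fit are not given here, so these counts are not read as a result about the members.

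**Figure D2:**
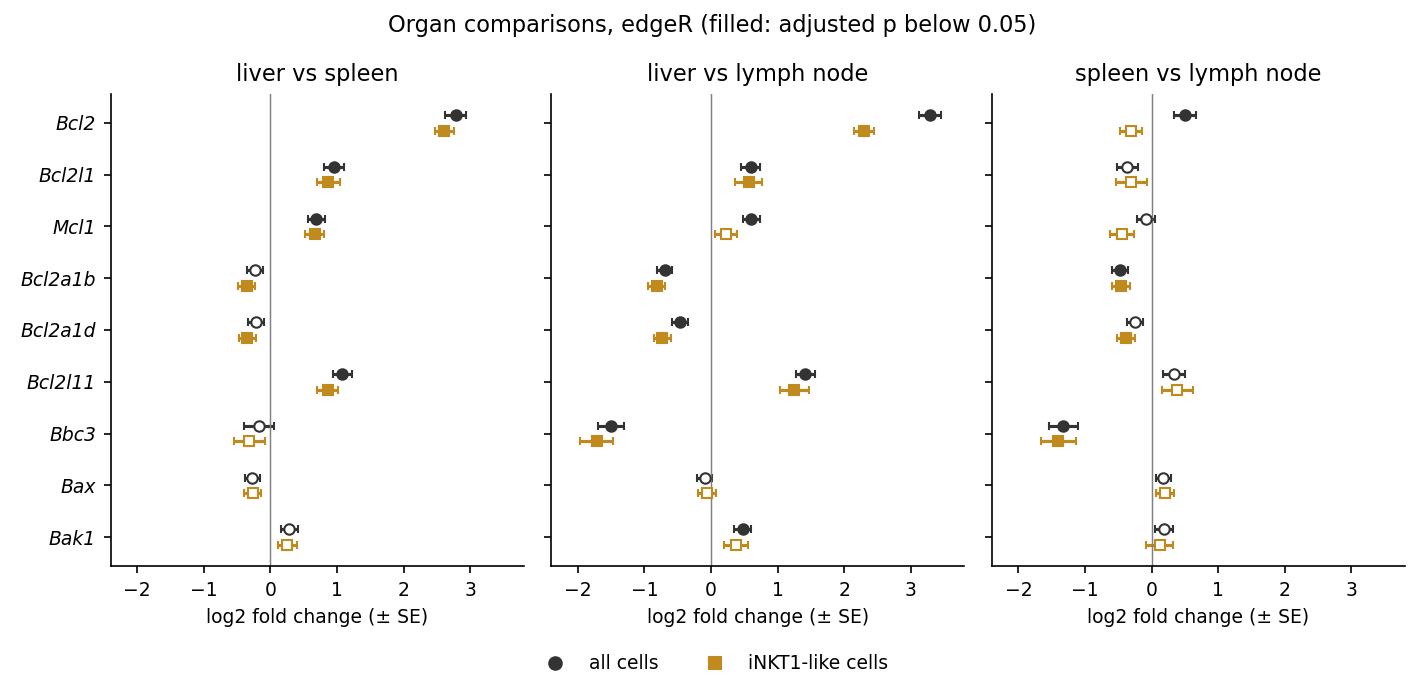
The log2 fold change of each member in the 3 organ comparisons, over all cells (circles) and iNKT1-like cells (squares), with bars of 1 SE from edgeR and filled symbols at an adjusted p below 0.05. Positive values are higher in the organ named first. Bcl2 lies at 2.30 to 3.28 in both comparisons of liver, and Bbc3 lies at -1.72 to -1.33 in both comparisons with lymph node.

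iNKT17-like cells, the interleukin-17 lineage marked by Il23r and Ccr6, were mostly in lymph node, with 864 and 1019 cells there, 21 and 33 in liver and 41 and 31 in spleen. Only 3 members (Bax, Bcl2a1b and Bcl2a1d) passed the filter on low counts. Bcl2a1b was lower in liver than in lymph node (238 and 348 CPM against 529 and 539 CPM, log2 fold change -0.86, SE 0.24, edgeR adjusted p 0.00556), beside 18.2% of 1666 genes called. That call was lost with libraries thinned to one total and without the first liver library (adjusted p 0.000161 to 0.255 over its 12 alternatives). Liver against spleen gave 0 calls among the 3 with edgeR (3.72% of genes called), as did spleen against lymph node (5.1% of genes called). The count was also 0 in both at an unadjusted p under 0.05 and with DESeq2, for which the shares of all genes are not given.

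Bcl2 was low in this class outside liver. It had 84 UMIs of 2681078 in lymph node (28.7 and 33.8 CPM), 20 of 153344 in liver (79.2 and 180.5 CPM) and 0 of 125475 in spleen, where a count of 0 allows up to 23.9 CPM (3 counts over both libraries). Liver was highest both here and over all cells, and the part of free RNA from Bcl2-rich liver cells was not tested. An interaction term with library as a block asked whether organs differed by another amount in iNKT17-like than in iNKT1-like cells. edgeR called 0 of 9 members for liver against spleen (0.176% of 9078 genes called), 0 for liver against lymph node (0.914%) and 0 for spleen against lymph node (0.562%). The 6 members that failed the filter in iNKT17-like cells entered this fit through their iNKT1-like counts, and they had 0 to 7 UMIs each in spleen iNKT17-like cells, which limits what the test could call there. At an unadjusted p under 0.05 there were 1, 1 and 2 members, Bcl2 or Bcl2l1 in each case. The shares of all genes under that threshold are not given, so these counts are not read as a result about the members. Both alternatives run for it (no filter on low counts and resolution 1.0) also gave 0 calls, and no other tool was run.

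Finer clustering (Leiden resolution 1.0) separated further classes, whose member levels are given as a description because clusters are no independent groups. NF-kB-like cells, led by Irf8, Cxcl10 and Bcl3 and named from Icam1, Nfkbia and Relb among others, numbered 233 and 348 in liver. They had 248 and 196 CPM of Bcl2, against 994 and 704 CPM in the iNKT1-like cells of the same libraries. Bcl2l11, which stood among the 10 leading genes of this cluster, was at 234 and 202 CPM in NF-kB-like cells and at 71.3 and 50.7 CPM in iNKT1-like cells. The A1 genes were also higher in NF-kB-like liver cells, with 628 and 759 CPM of Bcl2a1b against 332 and 361, and 486 and 556 CPM of Bcl2a1d against 213 and 233.

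In spleen the NF-kB-like class had 56 and 30 cells and the same order. It held 39.9 and 71.5 CPM of Bcl2 (only 4 UMIs in each library) against 119 and 123 CPM in iNKT1-like cells. Its Bcl2a1b was at 817 and 1073 CPM, against 478 and 491 CPM. Bcl2l11 was at 130 and 232 CPM (13 UMIs in each library), against 44.4 and 38.8 CPM. In lymph node the class had 17 cells in each library, with 1500 and 1685 CPM of Bcl2a1b (34 and 28 UMIs) and 1 Bcl2l11 UMI each.

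The remaining classes differed in Bcl2, in the A1 genes or in both. Gzma-like cells, which carry granzyme A and Ly49 receptors, had 935 and 493 CPM of Bcl2 in liver and low A1 levels (205 and 220.4 CPM of Bcl2a1b, 69.3 and 126 CPM of Bcl2a1d). Ifit-like cells, which express interferon-induced genes, had 357 and 315 CPM of Bcl2 in liver and 69.2 and 63.8 CPM in spleen. Cycling cells had the lowest Bcl2 of the liver classes other than iNKT17-like cells, at 179 and 114 CPM, and 18.1 to 27.1 CPM in the other organs. Recent thymic emigrant-like (RTE-like) cells, marked by Ccr7 and Klf2 among others, had 288 and 280.4 CPM of Bcl2 in liver, 40.1 and 44.6 CPM in spleen and 175 and 146 CPM in lymph node. Most of the lymph node cells of this class (77 and 73) came from a cluster with only 4 and 2 spleen cells, while the spleen cells came mainly from another. In lymph node, iNKT2-like cells were 1 part of a cluster whose other cells stayed unnamed. They had the highest Bcl2a1b of the lymph node classes with over 20 cells (936.5 and 1056 CPM). Their Bcl2 was low, at 31.3 and 13.1 CPM (9 and 3 UMIs).

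**Figure D3:**
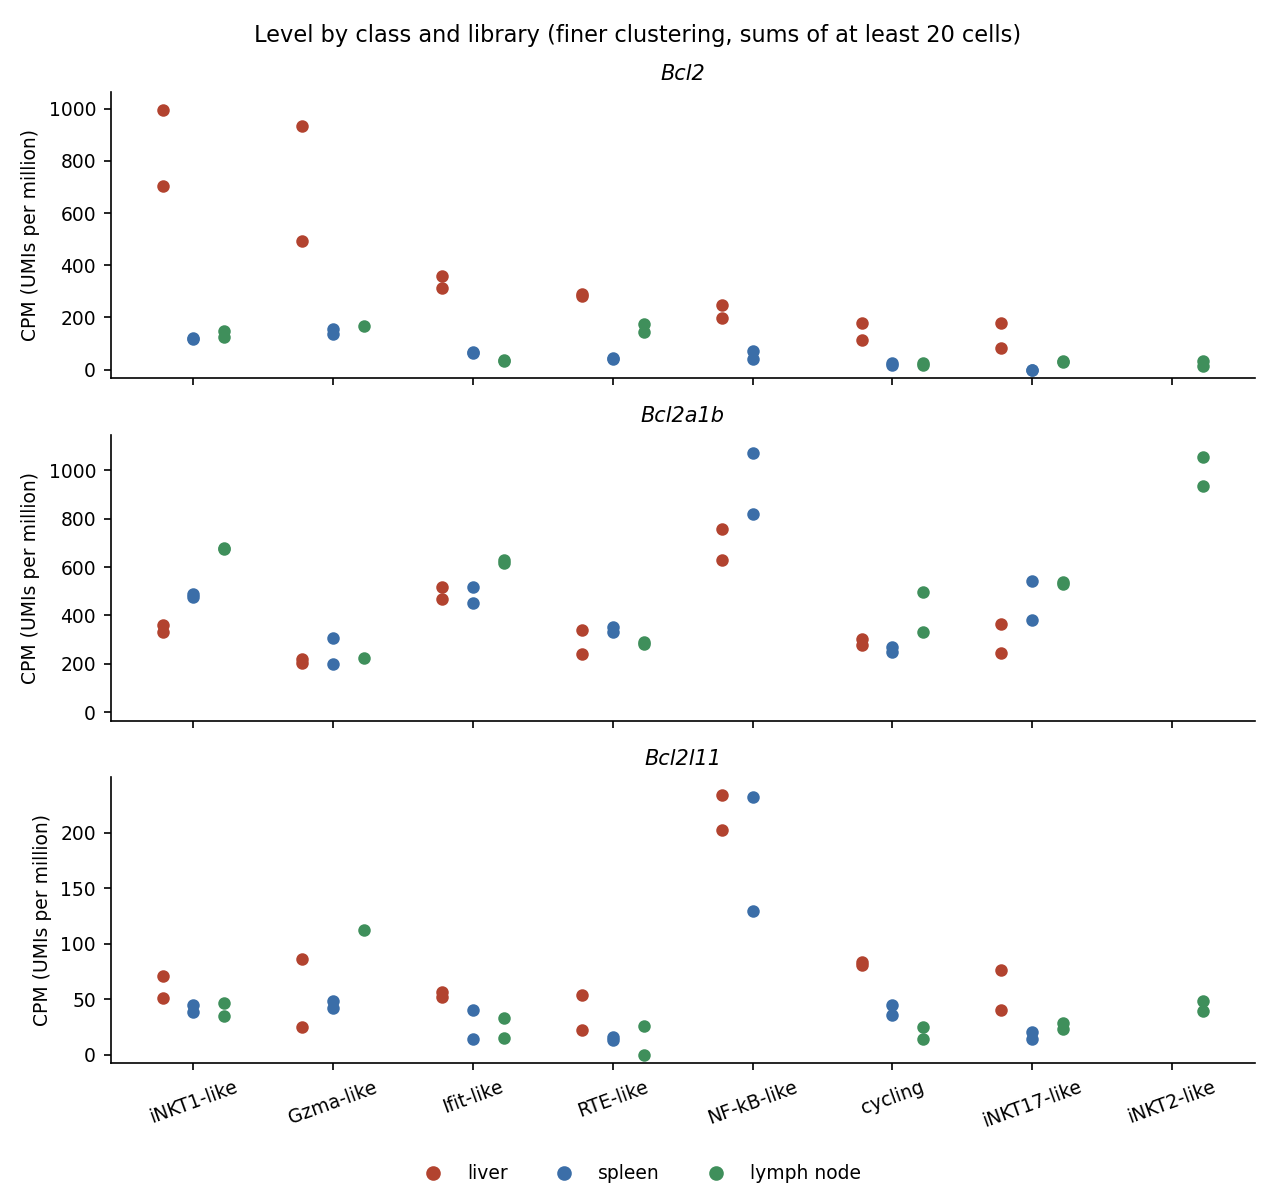
CPM of Bcl2, Bcl2a1b and Bcl2l11 by class (finer clustering) and organ, with 1 point per library where the class held at least 20 cells. Liver iNKT1-like and Gzma-like cells reach 493 to 994 CPM of Bcl2, while NF-kB-like cells of liver have 196 and 248 CPM of Bcl2 and 202 and 234 CPM of Bcl2l11.

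The balance was taken as the log2 ratio of summed UMIs of the 5 anti-death members over those of the 4 pro-death members, and was not tested. It was 1.58 and 1.45 in the liver libraries (mean 1.52 ± 0.09, SD, n = 2). Spleen gave 0.78 and 0.93 (0.86 ± 0.10, SD, n = 2), and lymph node gave 1.29 and 1.21 (1.25 ± 0.05, SD, n = 2). The libraries of the 3 organs did not overlap. Taken instead as the difference of mean log2 CPM, which weights each member equally, spleen (0.78 and 0.99) and lymph node (0.88 and 0.83) overlapped and their order turned, while liver stayed highest (1.36 and 1.54). As a plain ratio, liver had 2.99 and 2.74 anti-death UMIs per pro-death UMI, spleen 1.72 and 1.90, and lymph node 2.44 and 2.32. The pro-death sum hardly varied, from 457 to 528 CPM over the 6 libraries, while the anti-death sum ran from 885 CPM in a spleen library to 1579.7 CPM in a liver library.

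The same side of the balance was filled by different genes. Of the anti-death UMIs, Bcl2 gave 50.7% and 37.3% in liver, with 10% and 9.98% for spleen and 5.99% and 5.48% for lymph node. The A1 copies together gave 37.7% and 50.9% in liver, with 78.7% and 80.2% for spleen and 84.0% and 85.0% for lymph node. Mcl1 gave 5.75% to 7.55% and Bcl2l1 3.20% to 4.43% in every library. Without Bcl2 the balance of liver was 0.56 and 0.78, on both sides of spleen (0.63 and 0.77 for the first and the second library), and that of lymph node was 1.20 and 1.13. Liver thus lay above lymph node with Bcl2 counted and below it without Bcl2. Bax made up 61.2% to 76.2% of the pro-death UMIs. The share of Bcl2l11 was 17.1% and 14.8% in liver and 5.94% to 7.63% elsewhere, and that of Bbc3 was 9.66% and 9.30% in lymph node and 2.47% to 4.19% elsewhere.

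Within iNKT1-like cells liver had a mean balance of 1.62 ± 0.09, spleen of 1.03 ± 0.12 and lymph node of 1.54 ± 0.05 (SD, n = 2 each), so that liver and lymph node differed by less than the sum of their SDs. The few iNKT17-like cells gave another order, with 0.70 ± 0.37 for liver, 0.97 ± 0.75 for spleen and 1.00 ± 0.02 for lymph node (SD, n = 2 each). There the spleen libraries overlapped those of both other organs, and both liver libraries lay below both lymph node libraries. The ratio of Bcl2 to its partner Bcl2l11 over all cells was 8.85 and 6.91 UMIs per UMI in liver, with 2.40 and 2.49 for spleen and 2.21 and 2.14 for lymph node. Liver kept the highest ratio although both genes were higher there. The balance counts RNA of 3′ ends, which does not scale with gene length, and says nothing of protein.

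**Figure D4:**
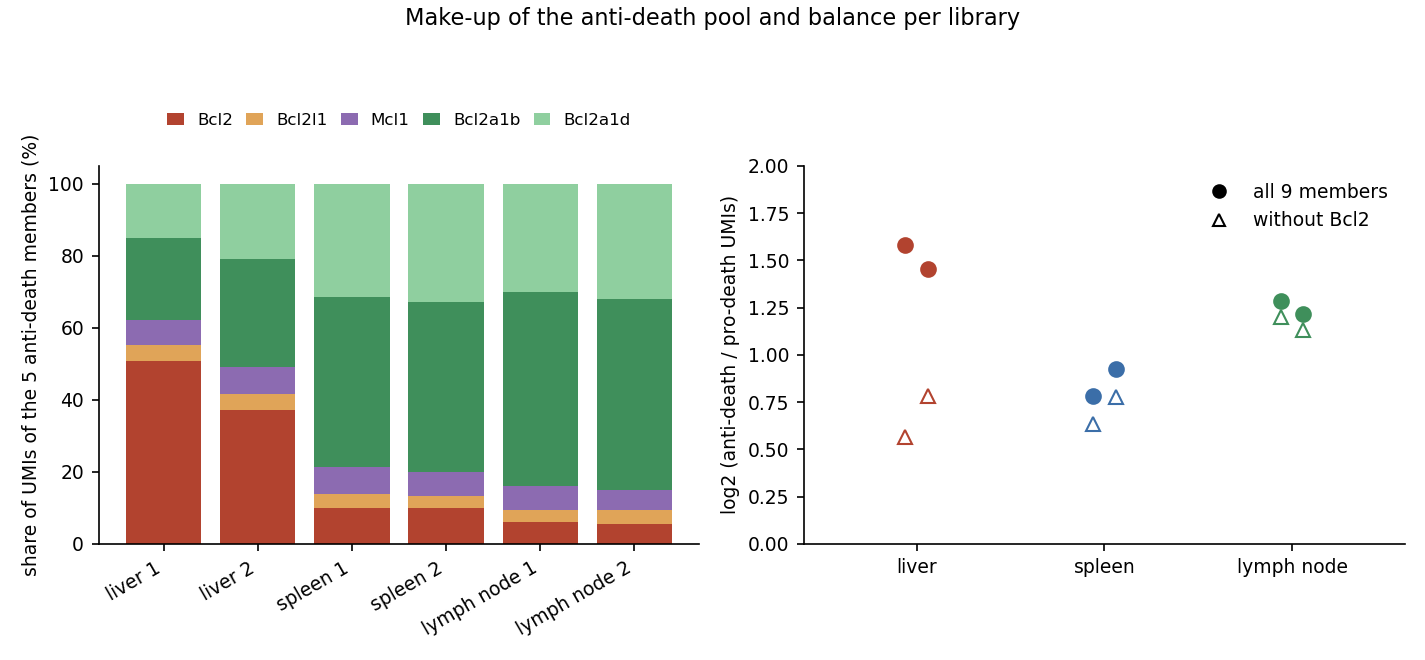
Left, the share of each anti-death member in the UMIs of the 5 (percent, stacked bars, 1 per library). Right, the log2 ratio of anti-death to pro-death UMIs per library over all cells, with all 9 members (filled circles) and without Bcl2 (open triangles). With Bcl2 the liver libraries lie highest (1.58 and 1.45), and without it they fall to the level of spleen while lymph node stays at 1.20 and 1.13.

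The rest of the pathway was read from 3 lists. Of 15 other BCL2 family genes, 9 passed the filter over all cells (Bcl2l10, Bok, Bmf, Hrk, Bcl2l14 and Bcl2l15 did not), and 4 were called between liver and spleen (2 higher and 2 lower in liver), 7 between liver and lymph node (2 and 5) and 2 between spleen and lymph node (both lower in spleen), where 25.7%, 37.6% and 18.3% of all genes were called. Their median log2 fold changes were -0.03, -0.63 and -0.19. Pmaip1, which encodes the BH3-only protein NOXA, had 6.20 and 10.2 CPM in lymph node, against 0.283 and 2.14 CPM in liver and 0.779 and 1.11 CPM in spleen. These values rest on few molecules. The gene passed the filter only through the lymph node libraries, where it was highest, so its calls against lymph node are not read as a result. Bcl2a1a, the third A1 copy, was also lower in liver than in lymph node (-1.52, SE 0.30, adjusted p 0.000138), at 3.67 to 11.9 CPM over the libraries. Its values did not pass the test between liver and spleen (-0.73, adjusted p 0.102) or between spleen and lymph node (-0.79, adjusted p 0.0726). Bcl2l2, which encodes the protector BCL-W, had 2.68 and 4.11 CPM in liver, 1.04 and 1.11 CPM in spleen and 0.539 and 0.276 CPM in lymph node. These values rest on few molecules. Bcl2l2 passed the filter only through the liver libraries, where it was highest, so its 2 calls for liver are not read as a result. Bcl2l13 was higher in liver than in spleen (0.74, edgeR adjusted p 0.00759).

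Of 21 genes of the mitochondrial death pathway, all passed the filter. Over all cells 4 were called between liver and spleen (3 higher and 1 lower in liver), 7 between liver and lymph node (5 and 2) and 5 between spleen and lymph node (4 and 1), with medians of -0.01, 0.16 and 0.10. The shares of all genes called were again 25.7%, 37.6% and 18.3%, so these counts lie near or below them between liver and either other organ. Birc2, which encodes the inhibitor of apoptosis cIAP1, was lower in liver than in spleen (log2 fold change -0.85, SE 0.12, edgeR adjusted p 6.06e-06) and than in lymph node (-1.12, SE 0.12, adjusted p 6.36e-09). Apaf1, the scaffold of the apoptosome, was higher in liver than in both (0.83 and 1.01, adjusted p 0.0188 and 0.0032). Casp9, the caspase that Apaf1 activates, was lower in spleen than in lymph node (-1.18, SE 0.34, edgeR adjusted p 0.0136), and Cycs, which encodes cytochrome c, was higher (0.51, SE 0.13, adjusted p 0.00578). Within iNKT1-like cells both Birc2 calls held (-1.04 and -1.42, edgeR adjusted p 1.29e-10 and 7.35e-16). Both Apaf1 calls were lost (0.63 and 0.87, adjusted p 0.11 and 0.146), as were those of Casp9 (-0.45, adjusted p 0.779) and Cycs (0.39, adjusted p 0.0586).

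Of 18 upstream regulators, all tested, 5 were called between liver and spleen (4 higher and 1 lower in liver), 8 between liver and lymph node (4 each way) and 5 between spleen and lymph node (2 higher and 3 lower in spleen), with medians of 0.05, 0.08 and -0.05, beside the same shares of all genes. Il2rb and Il7r ran in opposite directions. Il2rb, the chain that interleukin-15 and interleukin-2 share, was higher in liver than in spleen (1.57, SE 0.12, edgeR adjusted p 5.29e-11) and than in lymph node (2.89, SE 0.13, adjusted p 5.05e-18). Il7r was lower in liver than in spleen (-1.12, SE 0.12, adjusted p 2.37e-08) and than in lymph node (-2.11, SE 0.12, adjusted p 1.2e-15). Il15ra was higher in liver than in lymph node (0.97, SE 0.28, adjusted p 0.00671) and did not pass the test between liver and spleen (0.09, adjusted p 0.824). In iNKT1-like cells its call against lymph node was lost (0.36, edgeR adjusted p 0.522). The kinase genes Pim1 and Akt1 were lower in spleen than in lymph node (-1.39 and -1.44, adjusted p 2.52e-10 and 9.1e-08), and Pim1 was higher in liver than in spleen (1.10, SE 0.13, adjusted p 1.05e-07). Il2rb was also higher in spleen than in lymph node (1.32, SE 0.13, adjusted p 2.04e-09). In iNKT1-like cells Il2rb and Il7r kept these directions (1.37 and -1.25 for liver against spleen, 2.03 and -1.72 for liver against lymph node, all called), although Il2rb was among the markers that named that class. Of the 3 lists, 2, 3 and 1 of 8 other family genes, 3, 4 and 0 of 20 death pathway genes and 7, 5 and 5 of 18 regulators were called in iNKT1-like cells by edgeR, with the comparisons in the same order and 23.7%, 22% and 8.58% of all genes called.

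The 3 members called with at least a 2-fold difference were set against the 10175 genes tested, by the root mean square difference of log2 CPM over the 6 libraries after each gene was centred on its own mean. The genes closest to Bcl2 were Il10ra (0.24), Stk32c (0.24) and C1qtnf6 (0.27). Those closest to Bcl2l11 were Ppp3cc (0.07), Tmem229b (0.09) and Ffar2 (0.09), and those close to Bbc3 included Lrrc8b (0.17) and Fbxw10 (0.17).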

How the data were processed

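Libraries were of the 10x Chromium 3′ v2 kind, and the submitters' processing notes name Cell Ranger 3.1.0, Seurat and mm10. The deposited matrices hold raw UMI counts per gene and barcode, with no normalization. The deposited gene and barcode lists hold other values, identifiers and barcodes. Members and lists were chosen with earlier results of these data known. Kept barcodes had 300 to 4000 genes and at most 15% mitochondrial UMIs, which dropped 55 of 16587, and 188 ribosomal and haemoglobin genes were removed. CPM is taken over the remaining UMIs, and no doublets were removed in the main setting.

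Cells were clustered with scanpy 1.11.5 and leidenalg 0.10.2 (3000 variable genes without members and pathway genes, 20 components, 20 neighbours, resolution 0.5) and named only from marker lists. A class other than iNKT1-like and iNKT2-like needed a median log2 fold of its markers of at least 1 and 3 markers 2-fold up. iNKT1-like clusters needed a median above 0, and iNKT2-like was given only to parts of split clusters. Unnamed clusters of at least 500 cells were split once more, with parts named at a median of at least 0.5. Clusters were scored against all other cells, and parts only against the rest of their own cluster. The study's own cell annotation was not used here, so its classes may differ. UMIs were summed per library and tested with edgeR 4.0.16 in R 4.3.3 (filterByExpr, TMM, robust quasi-likelihood, 6 libraries in 1 fit, Benjamini-Hochberg over all genes tested, called below 0.05), with sums of at least 10 cells. SE is the absolute log2 fold change over the root of F. The interaction test used library as a block. A run of the fit on simulated data is not reported here and supports no result. Replicate libraries differed beyond counting noise (chi-square per degree of freedom 3.26 to 6.92).

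Named were all 9 members, the 3 genes of each pathway list with the largest absolute log2 fold change per comparison over all cells, and the 3 genes nearest in pattern to each member called at 2-fold or more. Clusters were described by leading genes. A few genes that this rule names are not reported here. Alternatives were DESeq2 1.42.0, size factors (RLE), no filter on low counts, no cell filter, ribosomal and haemoglobin genes kept, thinning, the top 2% by Scrublet score left out, resolution 1.0, member genes used for clustering, a replicate block and each library left out. The 2 settings for iNKT1-like cells (whole clusters only, and without NF-kB-like cells) were chosen after seeing the data. The label "nuclear RNA" was not settled here.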

Additional observations from a re-analysis of the deposited data

How the results depend on the processing

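The 63 fold changes of members were recomputed in 864 cases, of which 797 kept direction and side of the threshold, 45 lost a call, 7 gained one and 15 changed sign. Only 1 of the 15 had been called, Bcl2l1 between liver and lymph node in iNKT1-like cells (-0.24 with whole clusters only). The others were uncalled, namely Bbc3 between liver and spleen over all cells (0.09 without the second liver library, and -0.54 to 0.17 over all single libraries left out) and in iNKT1-like cells (-0.66 to 0.0064), and Bax between liver and lymph node in iNKT1-like cells (0.0094 thinned, 0.39 with whole clusters only and -0.13 to 0.017 with single libraries left out). Between spleen and lymph node in iNKT1-like cells they were Bcl2l1 (0.078 at resolution 1.0), Mcl1 (0.21 with whole clusters only) and Bak1 (-0.20 thinned). In iNKT17-like cells they were Bax between liver and spleen (-0.57 to 0.35 with single libraries left out), Bax between spleen and lymph node (-0.11 without a filter, -0.081 thinned, and -0.49 to 0.39 with single libraries left out) and Bcl2a1d (-0.071 without a filter). For these changes of sign, and the changes of count that follow, the cause was not tested. The shares of all genes called under these settings are not given, so the counts are not read as a result about the members. Counts of called members moved by over 1.5 times for liver against lymph node in iNKT1-like cells (2 with whole clusters only), for spleen against lymph node in the same cells (0 with whole clusters only), and in iNKT17-like cells for liver against spleen (1 without a filter) and for liver against lymph node (2 with DESeq2, 2 without a filter and 0 thinned). With single libraries left out, the counts over all cells were 4 to 6, 7 to 8 and 1 to 3 for liver against spleen, liver against lymph node and spleen against lymph node, with the 1 reached without the first spleen library. They were 4 to 7, 5 to 6 and 1 to 3 in iNKT1-like cells and 0 to 1, 1 to 2 and 0 in iNKT17-like cells.

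The balance of liver, spleen and lymph node was 0.67, 0.70 and 1.17 without Bcl2, 1.41, 0.75 and 1.16 without Mcl1, and 1.62, 1.03 and 1.54 in iNKT1-like cells. As a difference of mean log2 CPM it was 0.85 in lymph node, below the 0.89 of spleen, which turns their order. With single libraries it was 1.45 to 1.58, 0.78 to 0.93 and 1.21 to 1.29. The share of cells with a Bcl2 UMI was 63.5%, 10.9% and 7.33% without thinning and 21.0%, 4.29% and 3.16% at 500 UMIs, and 29.5% to 40.3%, 6.73% to 7.12% and 4.49% to 4.93% with single libraries.

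Deviations of same-numbered libraries from their organ's mean correlated at 0.07 to 0.09 across 10175 genes. With 2 libraries per organ, these values cannot show whether the replicate numbers pair the libraries. With a replicate block, 5 members were called between liver and spleen over all cells (Bax was added) and 7 in iNKT1-like cells (Bax again). The other counts over all cells were 8 and 3. The shares of all genes called with the block are not given, so these counts are not read as a result about the members. Class names depend on the clustering, 2 libraries per organ limit precision, and iNKT17-like cells of liver and spleen were too few for most members.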
